A study of Homo sapiens with 6 samples.

Results

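HERVH, a human endogenous retrovirus, and the LTR7 sequences that act as its promoters were followed in human embryonic stem cells with an inducible hairpin against the RNA exosome. The members were the sequences named HERVH (the internal part of the provirus), LTR7A, LTR7B, LTR7C and LTR7Y. These are 5 of the 1047 sequences in each deposited table. ACTB and GAPDH transcripts are 2 of the 1047, and the other 1045 were not checked name by name to be repeats. All 5 passed the filter on low counts, as did 699 sequences in all. A sequence named LTR7 with no letter after it was not analysed here.

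Every library came from the H1 embryonic stem cell line, passages 40 to 60 per the labels, grown without feeder cells and carrying a short hairpin RNA against EXOSC3 (shEXOSC3) that doxycycline switches on. The PB group carried an empty vector, and the EXOSC3r group carried an EXOSC3 transgene that the hairpin cannot target. PB cells gave 1 library without and 1 with doxycycline (dox), and EXOSC3r cells gave 2 clones, each without and with dox, so that there were 6 libraries from 3 lines. The design asks whether changes seen on induction of the hairpin are absent when resistant EXOSC3 is present. There were no cells without the hairpin, PB was 1 line, and EXOSC3 RNA was not analysed here, so neither depletion nor rescue was checked.

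A HERVH provirus consists of an internal part, with remains of the gag, pol and env genes, between a pair of long terminal repeats (LTRs). The 5′ LTR starts transcription and the 3′ LTR ends it, and many LTRs stand alone in the genome after recombination has removed the internal part. In human pluripotent cells LTR7 binds pluripotency factors such as OCT4 and NANOG, and HERVH RNA is among the most abundant retroviral RNAs there, much of it as long non-coding RNA. LTR7 of the common type is known for the primed state, whereas LTR7Y and LTR7B are known for earlier cells of the embryo. The RNA exosome degrades and trims RNA from the 3′ end, and EXOSC3 is one of the subunits of its RNA-binding cap.

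The total of assigned estimated counts lay between 3745262 and 5260196 per library and covers the listed sequences alone, so it is not sequencing depth. Alu took 37.3% of it in PB cells and 33.0% with dox, 45.4% and 52.5% in clone 1, and 41.8% and 40.1% in clone 2. A fit without Alu, ACTB and GAPDH together is among the alternatives in the last section, and the part of the Alu shifts by themselves was not tested. Levels are therefore given as CPM scaled by TMM, a method that centres each library on the bulk of its sequences, and the main directions are repeated with other scalings. A consensus stands for many genomic copies, so fewer active copies and less RNA per copy cannot be told apart, nor can fewer expressing cells and less RNA per cell. Marker genes of cell types were not analysed here.

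HERVH was the sixth most counted sequence in each of the 6 libraries, after which LTR7A came between rank 11 and 20, LTR7Y between 18 and 25, LTR7B between 26 and 34, and LTR7C between 244 and 277. The share of all assigned counts held by the 5 together was 5.06% in the PB line (5.04 to 5.08, 95% Clopper-Pearson interval), and dox brought it to 6.05% (6.03 to 6.07). Clone 1 had 4.17% (4.15 to 4.19) before dox and 2.66% (2.65 to 2.68) under it. Clone 2 had 4.52% (4.501 to 4.54) before dox and 3.62% (3.61 to 3.64) under it. These intervals cover counting error only. The share was thus higher with dox in the PB line and lower with dox in both clones.

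HERVH, the internal part, stood at 28393 CPM in PB cells, and the PB library with dox had 35679 CPM. In clone 1 it stood at 27573 CPM without and 20520 CPM with dox, and in clone 2 at 28170 and 21047 CPM. In this scaling the 3 libraries without dox lay close together. The PB library with dox lay above them, and both clone libraries with dox lay below them. Relative to ACTB and GAPDH counts, HERVH was at 24.2%, 14.2% and 19.9% without dox in PB, clone 1 and clone 2. With dox it was at 34.2%, 9.44% and 16.4%. The counts behind these values ranged from 80279 to 197583 per library, so counting error was far smaller than these gaps.

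**Figure D1:**
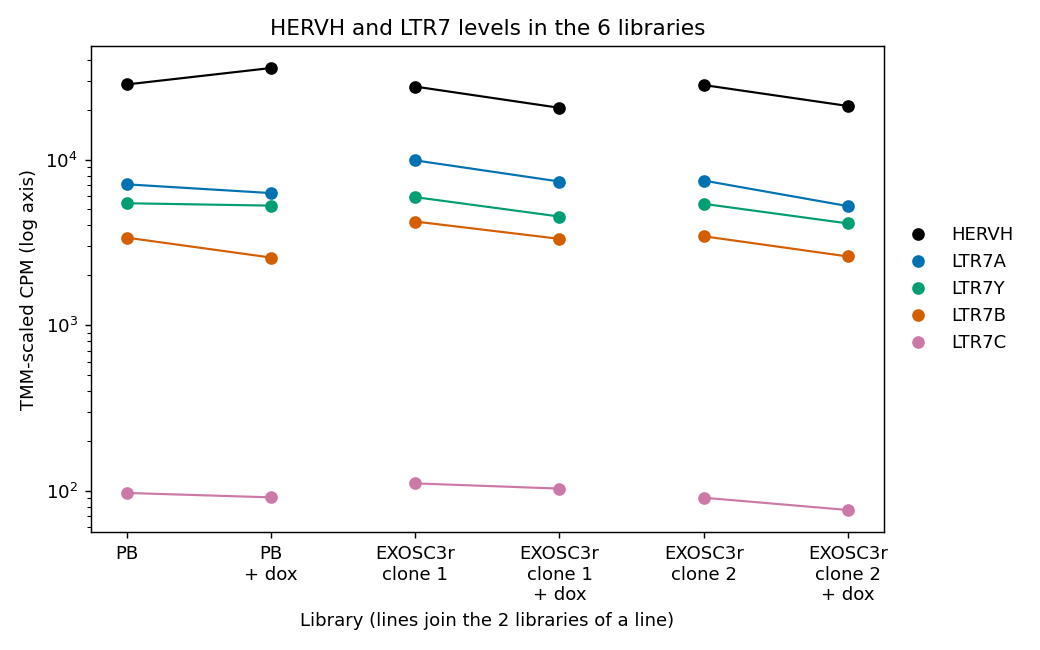
Levels of the 5 sequences in TMM-scaled CPM (log axis) in each of the 6 libraries, with a line joining the libraries without and with dox of the same cell line. HERVH goes from 28393 to 35679 CPM in the PB line and from about the same start to 20520 and 21047 CPM in the clones.

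LTR7A, the most counted of the LTRs, was at 7083 CPM in PB cells and 6271.5 CPM with dox. It was at 9884 and 7363 CPM in clone 1 without and with dox, and at 7462 and 5230.2 CPM in clone 2. The clones differed by more at either condition than PB cells did between conditions, and clone 1 with dox was almost level with clone 2 without it.

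LTR7Y, the LTR known for naive-like and blastocyst cells, was at 5445.0 CPM in PB cells and 5267 CPM with dox. It was at 5928 and 4526 CPM in clone 1 without and with dox, and at 5401 and 4112 CPM in clone 2. The PB libraries differed little, and both clone libraries with dox lay below all other libraries.

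LTR7B was at 3376 CPM in PB cells and 2559 CPM with dox, at 4221.5 and 3319 CPM in clone 1, and at 3440.1 and 2597 CPM in clone 2. It was lower with dox in all 3 lines, PB included. LTR7C was rare, with between 314 and 505 estimated counts per library. Its levels were 97.0 and 91.2 CPM in PB cells without and with dox, 111 and 103 CPM in clone 1, and 90.8 and 76.5 CPM in clone 2, so that the clones overlapped between conditions.

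Levels of different sequences were also compared per length, as CPM per kilobase of effective length. The count ranks, count shares and LTR7 to HERVH count ratios given elsewhere are not corrected for length. In this measure LTR7A was highest, followed by LTR7Y, LTR7B, HERVH and LTR7C, and the order was the same in 6 of 6 libraries. LTR7A exceeded LTR7Y by 1.28 to 1.79 times, LTR7Y exceeded LTR7B by 1.33 to 2.01 times, LTR7B exceeded HERVH by 1.75 to 4.03 times, and HERVH exceeded LTR7C by 8.18 to 16.4 times. LTR7A had rank 4 of the 699 tested sequences per length in every library, LTR7Y between 5 and 8, LTR7B between 8 and 16, and HERVH between 30 and 46. The LTRs are 450 to 472 bases long against 7713 for HERVH, and the effective length corrects a short sequence far more than a long one. A per-length ratio between LTR and internal part therefore rests on that correction.

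The reads of HERVH and of its LTRs were also assigned with different certainty. The estimated count of HERVH was a whole number, within 0.01, in 6 of 6 libraries, whereas that of each LTR7 sequence was whole in 0 of 6. Reads shared among the LTR7 sequences, which are close relatives, were divided by estimation, so the sum of the 4 depends less on that division than any one of them does.

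In PB cells, 0 of the 5 sequences passed for dox (edgeR quasi-likelihood test, Benjamini-Hochberg adjusted over 699 sequences), against 0.858% of all sequences tested. One, HERVH, had an unadjusted p under 0.05 (0.032), against 4.01% of all, and DESeq2 also called 0, against 0.858% of all. HERVH had a log2 change of 0.33 ± 0.12 (SE, adjusted p = 1.00), LTR7Y of -0.05 ± 0.12, LTR7A of -0.18 ± 0.27, LTR7C of -0.09 ± 0.25 and LTR7B of -0.40 ± 0.21. HERVH was the 1 member with a positive change. The median of the 5 was -0.09, and that of all 699 was 0.0037. PB had 1 library per arm, and its error is borrowed from the spread between clones.

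In the PB line the values of the internal part and of the LTRs had opposite signs, and neither passed. The 4 LTR7 sequences summed to 16001 CPM without and 14188 CPM with dox, a log2 change of -0.18 ± 0.21 (edgeR, adjusted p = 1.00), against 0.33 ± 0.12 for HERVH. All 5 summed to 44394 and 49868 CPM, a change of 0.16 ± 0.14 (adjusted p = 1.00). As a share of total counts the log2 change was 0.42 for HERVH and -0.08 for the summed LTRs, and relative to ACTB and GAPDH it was 0.50 and -0.0019. The change of HERVH had the same sign with all 3 scalings, and that of the summed LTRs was near 0 with the last. LTR7Y and LTR7C changed sign with scaling in PB cells, to 0.12 and 0.08 relative to ACTB and GAPDH.

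In EXOSC3r cells, 0 of the 5 passed for dox in the same edgeR test, against 0.143% of all sequences. At an unadjusted p under 0.05 there were 3 lower members (HERVH, LTR7Y and LTR7B), against 1.29% of all sequences lower at that level, and DESeq2 called 1, HERVH (adjusted p = 0.017), against 0.572% of all. HERVH went from 27872 ± 422 to 20784 ± 373 CPM (SD, n = 2 clones), which is -0.42 ± 0.09 as a log2 change (edgeR, adjusted p = 0.39). LTR7Y went from 5665 ± 373 to 4319 ± 293 CPM (log2 -0.39 ± 0.09, adjusted p = 0.45). LTR7A had -0.46 ± 0.19, LTR7B -0.37 ± 0.15 and LTR7C -0.17 ± 0.18 (adjusted p = 1.00 for each). With single clone libraries left out LTR7A lay between -0.74 (without the clone 1 library with dox) and -0.24 (without the clone 2 library with dox), and LTR7B between -0.57 and -0.21 with the same libraries left out.

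The 5 had a median of -0.39, against 0.0052 over all 699 sequences, and all 5 were negative. For 4 of them, LTR7C being the exception, both dox libraries lay below both libraries without dox, which also held for 14.7% of all sequences. Without the clone 2 library with dox, LTR7C had a change of 0.03 instead of -0.17. The sum of the 4 LTRs went from 18269 ± 2652 to 13664 ± 2330 CPM (log2 -0.42 ± 0.15, edgeR adjusted p = 1.00). The sum of all 5 went from 46141 ± 2230.0 to 34447 ± 1958 CPM (log2 -0.42 ± 0.10, adjusted p = 0.61).

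The clones come in pairs, since the libraries without and with dox are of the same clone. With the line as a block, the change is set against how far the dox changes of the clones differ. In that fit 4 of the 5 fell with dox in EXOSC3r cells (edgeR), against 0.715% of all sequences. These were HERVH (adjusted p = 0.015), LTR7A (0.017), LTR7Y (0.017) and LTR7B (0.027), whereas LTR7C did not pass (0.71). They were 4 of the 5 sequences that fell among the 699 in that fit, which has 1 residual degree of freedom. The summed LTRs (adjusted p = 0.015) and the sum of all 5 (0.015) passed in it as well. For dox in PB cells 0 of the 5 passed with the block (edgeR), against 1% of all sequences. HERVH (0.33, adjusted p = 0.063) and LTR7B (-0.40, adjusted p = 0.064) came nearest to the threshold there.

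Within each clone the changes were alike in size. HERVH had a log2 change of -0.43 in clone 1 and -0.42 in clone 2, LTR7Y of -0.39 in both, LTR7B of -0.35 and -0.41, LTR7A of -0.42 and -0.51, and LTR7C of -0.10 and -0.25. With shares of total counts HERVH changed by -0.66 and -0.31, and relative to ACTB and GAPDH by -0.59 and -0.29. The sign was the same with all 3 scalings in both clones, for each of the 5 members, while the 2 clones were less alike with the last 2 scalings. Clone 1 with dox had the highest share of Alu, 52.5%, and clone 2 with dox a lower one than without.

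**Figure D2:**
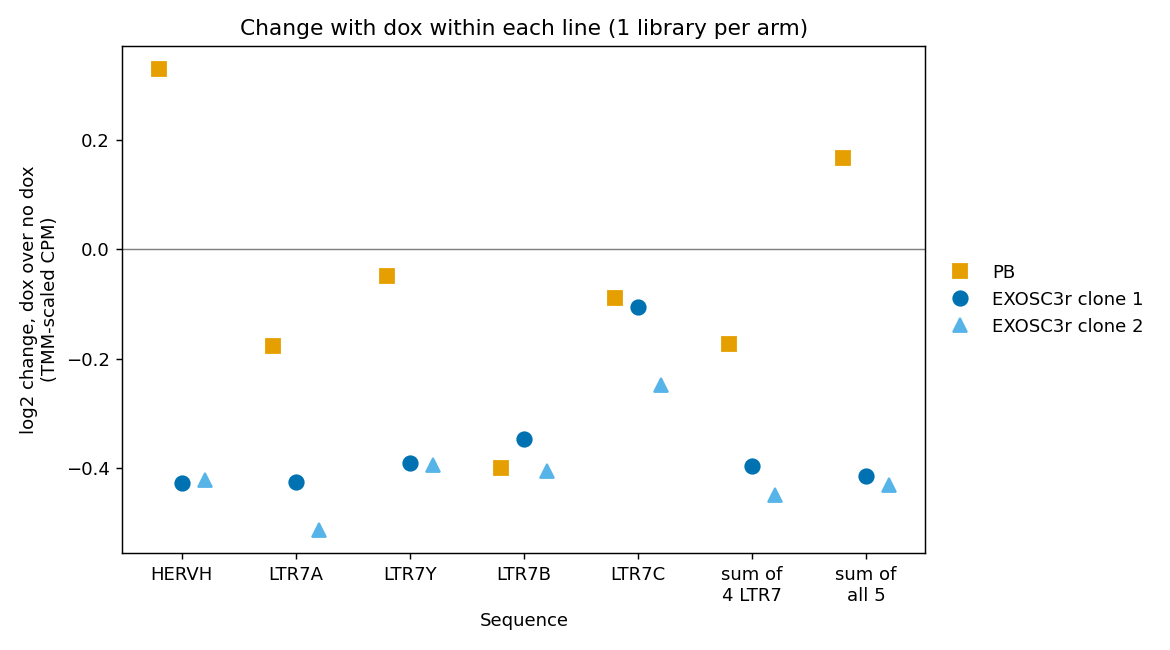
Log2 change of TMM-scaled CPM with dox within each line, for each sequence, the sum of the 4 LTR7 sequences and the sum of all 5. HERVH is at 0.33 in the PB line and at -0.43 and -0.42 in the clones, while LTR7B is near -0.4 in all 3 lines.

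The response to dox was then compared between PB and EXOSC3r cells by an interaction term in edgeR. None of the 5 passed, nor did any of the 699 (0%), and 1 member (HERVH) had an unadjusted p under 0.05 against 1.29% of all. DESeq2 called HERVH (adjusted p = 0.018), against 0.429% of all. For HERVH the PB response exceeded the EXOSC3r response by 0.75 ± 0.15 in log2 units (adjusted p = 0.40). HERVH was above its no-dox level in the PB line and below it in 2 of 2 clones, a pattern shown by 11.3% of all sequences and by none of the LTRs. With the line as a block HERVH passed (adjusted p = 0.020), as did 0.429% of all sequences. The PB line, with 1 library per condition, adds nothing to the error of that fit.

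For the LTRs the difference of responses was smaller. It was 0.34 ± 0.15 for LTR7Y, 0.29 ± 0.34 for LTR7A, 0.08 ± 0.30 for LTR7C and -0.03 ± 0.25 for LTR7B (edgeR, adjusted p = 1.00 for each). The summed LTRs differed by 0.25 ± 0.26 (adjusted p = 1.00), and the sum of all 5 by 0.59 ± 0.17 (adjusted p = 1.00, and 0.038 with the line as a block). LTR7B and LTR7C changed sign when single clone libraries were left out, over ranges of -0.19 to 0.17 and -0.12 to 0.32. Without the clone 2 library with dox the difference was 0.060 for LTR7A and 0.081 for the summed LTRs, and without the clone 1 library with dox it was 0.56 and 0.445.

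**Figure D3:**
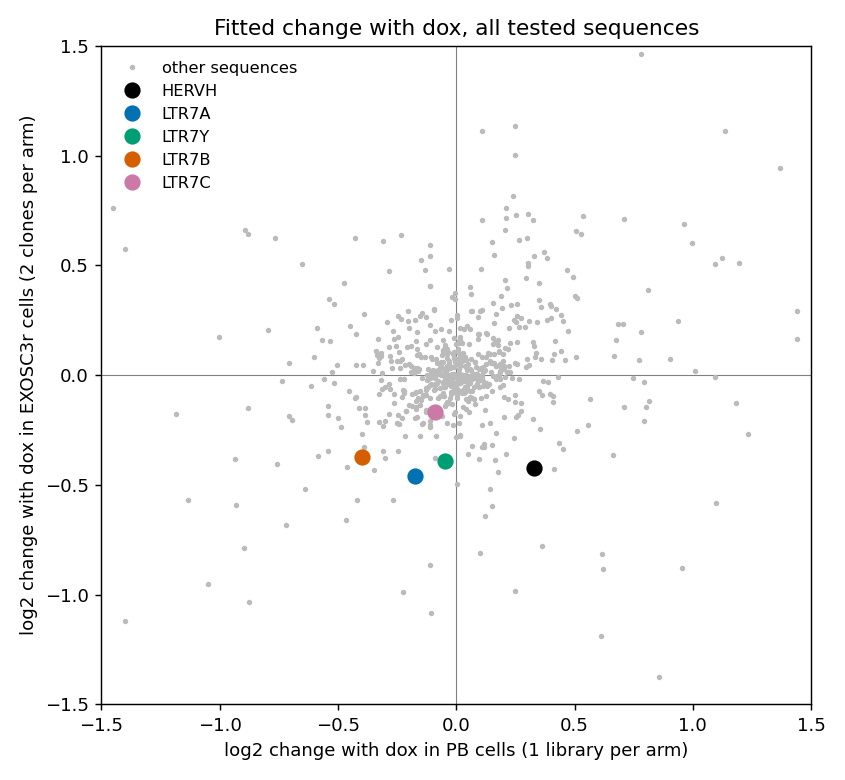
Fitted log2 change with dox in PB cells (horizontal) against that in EXOSC3r cells (vertical) for the tested sequences within 1.5 of 0 on both axes; 22 of 699 lie outside. The 4 LTR7 sequences lie at negative values on both axes and HERVH at 0.33 in PB and -0.42 in EXOSC3r cells.

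The ratio of summed LTR7 counts to HERVH counts is taken within a library and so does not depend on how libraries are scaled. It was 0.564 in the PB library without dox and 0.398 in the one with dox. It was 0.731 and 0.746 in clone 1 without and with dox, and 0.582 and 0.571 in clone 2. The PB library with dox had the lowest value of the 6, clone 1 had the highest at both conditions, and within a clone the conditions were close.

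On the log2 scale the ratio changed with dox by -0.50 in the PB line, by 0.03 in clone 1 and by -0.03 in clone 2. The PB change differed from the mean of the clones by -0.50, which lay between -0.70 and -0.31 when single clone libraries were left out (without the clone 2 and the clone 1 library with dox). It was the most extreme of the 3 lines, for which the two-sided exact permutation test gives p = 0.333, the smallest that 3 lines allow. The pooled SD of the log2 ratio between clones at the same condition was 0.253. Of the counts of the 5, the LTRs made up 36.0% in the PB library without dox (35.8 to 36.2, 95% Clopper-Pearson interval) and 28.5% in the one with dox (28.3 to 28.6), against 42.2% and 42.7% in clone 1 and 36.8% and 36.3% in clone 2. The intervals, which cover counting error only, do not overlap between the PB libraries. Clone 1 and clone 2, which carry the same transgene, were also apart in this share at both conditions.

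The makeup of the LTR7 counts also differed by line. LTR7A supplied 49.1% and 48.1% of them in clone 1 without and with dox, and between 43.5% and 45.5% in the other 4 libraries. LTR7Y supplied 29.4% and 29.6% in clone 1, 32.9% and 34.2% in clone 2, 34.0% in the PB library without dox and 37.1% in the one with it. LTR7B supplied 18.04% in PB cells with dox and between 20.96% and 21.7% elsewhere, and LTR7C never more than 0.672%. Clone 1 thus held more LTR7A and less LTR7Y at both conditions, and the PB library with dox had the highest LTR7Y and the lowest LTR7B share. These shares rest on the estimated division of reads between close relatives and were not tested.

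**Figure D4:**
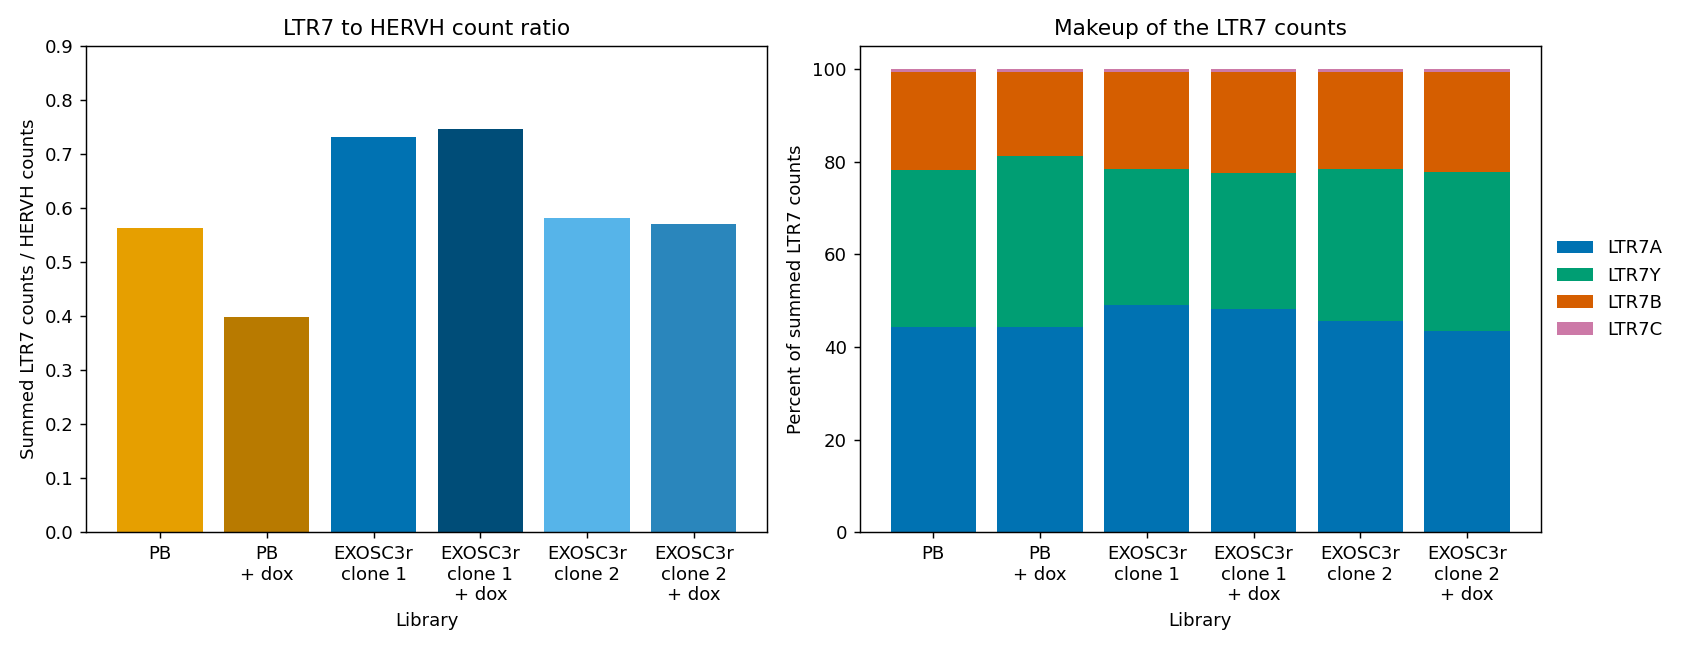
Left, summed LTR7 counts divided by HERVH counts in each library, with bars from 0; right, the percent of the summed LTR7 counts given to each LTR7 sequence. The ratio is lowest in PB cells with dox (0.398) and highest in clone 1 (0.731 and 0.746).

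Under dox, HERVH was lower in EXOSC3r than in PB cells, at 20784 ± 373 (SD, n = 2) against 35679 CPM, a 1.72-fold difference (log2 -0.78 ± 0.10, edgeR, adjusted p = 0.035). It was the 1 member of 5 called, against 1% of all sequences, each of which was lower in EXOSC3r cells. DESeq2 also called HERVH (adjusted p = 9.1e-07), against 1% of all. This comparison and the dox comparisons share libraries, so they are not independent. LTR7Y had a log2 difference of -0.29 ± 0.11 (adjusted p = 0.61), LTR7B of 0.21 ± 0.18, LTR7A of 0.0058 ± 0.24 and LTR7C of -0.02 ± 0.21. The summed LTRs had -0.05 ± 0.18 (adjusted p = 0.97) and the sum of all 5 had -0.53 ± 0.12 (adjusted p = 0.34, and 0.011 with the line as a block, where 3.15% of all sequences and 2 members, HERVH and LTR7Y, passed). The error of the blocked fit leaves out clone-to-clone spread for this comparison. The log2 ratio of LTR7 to HERVH counts was higher in EXOSC3r cells by 0.71 under dox, and by between 0.52 and 0.91 with 1 clone left out, a difference that was not tested. Both clone libraries lay below the PB library for HERVH and LTR7Y, which also held for 33.6% of all sequences. The differences of levels above are with TMM scaling. With total counts HERVH had -1.175 and the summed LTRs -0.487, and relative to ACTB and GAPDH they had -1.41 and -0.73. The median of all sequences was shifted by -0.402 and -0.637 with these 2 scalings.

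The HERVH call was lost (edgeR) without the clone 1 library lacking dox (adjusted p = 0.42), the clone 2 library lacking dox (0.18) or the clone 1 library with dox (0.19), with differences of -0.78, -0.78 and -0.77. It was kept without the clone 2 library with dox (-0.80, adjusted p = 0.015). It was also lost with total counts (adjusted p = 0.45) and with ACTB and GAPDH scaling (0.34), where the SE rose to 0.41 and 0.43.

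Without dox, 0 of the 5 differed between EXOSC3r and PB cells in edgeR, as did 0% of all sequences. At an unadjusted p under 0.05 there were 0 members, against 2.29% of all. DESeq2 called 0 members and 0% of all sequences. HERVH was at 27872 ± 422 CPM (SD, n = 2) against 28393 CPM, a log2 difference of -0.03 ± 0.10. LTR7A had 0.29 ± 0.24, LTR7B 0.18 ± 0.18, LTR7Y 0.06 ± 0.11 and LTR7C 0.06 ± 0.21. Without the clone 1 library lacking dox LTR7A had 0.075 and LTR7B 0.027, and without the clone 2 library lacking dox they had 0.486 and 0.328. The HERVH level of the PB library lay above those of both clones by less than the fitted error. The sum of all 5 differed by 0.05 ± 0.12. These differences are with TMM scaling. With total counts the log2 difference was -0.298 for HERVH and -0.22 for the sum of all 5. Relative to ACTB and GAPDH it was -0.504 and -0.43.

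The internal sequences HERVH48I, HERVFH19I and HERVFH21I, whose names resemble that of HERVH, were set beside it. HERVFH21I was at 1356 and 1476 CPM in PB cells without and with dox, at 1478 and 1534 CPM in clone 1, and at 1445 and 1434 CPM in clone 2. HERVH48I was at 1432 and 1221 CPM in PB cells, at 1308 and 996 CPM in clone 1, and at 1129 CPM in both libraries of clone 2. HERVFH19I stayed between 108 and 192 CPM. None of the 3 passed in any of the 5 comparisons without the block (edgeR), and the dox responses of PB and EXOSC3r cells differed by 0.10 ± 0.12 for HERVFH21I, -0.03 ± 0.17 for HERVH48I and -0.32 ± 0.47 for HERVFH19I.

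Of 32 internal sequences of class I retroviruses, the group to which HERVH belongs, 31 were tested. In edgeR 0 rose and 0 fell in each of the 5 comparisons. With the line as a block HUERS-P1 rose with dox in PB (0.50 ± 0.058, adjusted p = 0.047) and in EXOSC3r cells (0.36 ± 0.042, adjusted p = 0.039). In that fit HERVFH19I passed as higher (0.51 ± 0.077, adjusted p = 0.048) and HERVIP10FH as lower (-0.29 ± 0.044, adjusted p = 0.046) in EXOSC3r than in PB cells under dox. Its error leaves out clone-to-clone spread for this comparison. HERVFH19I was at 188.6 and 124.5 CPM in clones 1 and 2 with dox, against 107.8 CPM in PB. Without the block its difference was 0.54 ± 0.34 (edgeR, adjusted p = 0.80). In the other comparisons 0 passed with the block. The 31 had a median log2 change with dox of -0.04 in PB and 0.00066 in EXOSC3r cells. In EXOSC3r cells their changes spanned -0.45 to 0.36, a range that holds the HERVH change of -0.42. Their differences of response spanned -0.50 to 0.29, below the 0.75 of HERVH, and their EXOSC3r minus PB values under dox spanned -0.37 to 0.54, above the -0.78 of HERVH. No test was made of HERVH against this list.

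Of 20 repeats known for naive pluripotent or early embryonic cells, such as HERVK with LTR5_Hs, HERV9 with LTR12, MLT2A1 and L1HS, 0 rose and 0 fell in each of the 5 comparisons (edgeR). Their medians were -0.01 for dox in PB and -0.01 in EXOSC3r cells, where their changes spanned -0.10 to 0.17. With the line as a block 1 of the 20, L1HS, passed as lower in EXOSC3r than in PB cells under dox (-0.28 ± 0.039, edgeR adjusted p = 0.046). The error of that fit leaves out clone-to-clone spread for this comparison. In the other 4 comparisons 0 passed with the block. The changes of the 5 HERVH and LTR7 sequences in EXOSC3r cells, -0.46 to -0.17, all lay below the span of -0.10 to 0.17, LTR7C by the least. LTR7C was within it without the clone 2 library with dox (0.03) or without the clone 1 library lacking dox (-0.017).

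Among 249 other sequences with a mean of at least 100 CPM, those whose log2 CPM followed HERVH most closely over the 6 libraries were MER50 (Pearson r = 0.90), L1PA2 (0.90), MST_I (0.87), MER4D_LTR (0.84) and HERVIP10FH (0.84). The 6 libraries come from 3 lines and share their depth and scaling, and these values describe a ranking with no test. Their own ranges were narrow: MER50 lay between 202 and 228 CPM and L1PA2, a young L1 group, between 2031 and 2361 CPM. MER4D_LTR was at 167 and 202 CPM in PB cells without and with dox, at 182 and 168 CPM in clone 1, and at 177 and 160 CPM in clone 2. None of the 4 LTR7 sequences was a candidate in this ranking, since members were left out of it.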

How the data were processed

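Stranded libraries were made from total RNA after removal of ribosomal RNA, per the labels' protocols. The submitters' processing notes name Salmon 0.13.0, Trimmomatic 0.36 and bcl2fastq 2.17; index, options and genome build are not given in the sources used here. Per the file headers, each deposited table holds an estimated count, not normalised, and a TPM value, scaled over the listed sequences alone.

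Estimated counts were rounded. Sequences with at least 10 counts in at least 1 library were tested with edgeR 4.0.16 (R 4.3.3): quasi-likelihood test, TMM scaling, 4 group means, 2 residual degrees of freedom, Benjamini-Hochberg adjustment at 0.05. P-values measure the spread between clones, which edgeR moderates for each sequence toward the spread of all tested sequences. They thus rest partly on other sequences, with the block as well. Each PB arm, with 1 library, borrows this moderated spread. The standard error is the log2 change divided by the square root of F. For sums, member rows were replaced by their sum and the whole table refitted. Confidence intervals of 95% are Clopper-Pearson. The code was tested on simulated data.

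The clone number pairs the libraries, since both libraries of a clone are the same cells grown without and with dox. Clone 1 minus clone 2 differences in the 2 conditions correlated across sequences, which are not independent, with a Pearson r of 0.17 over 690 sequences and 0.61 over the 253 with at least 100 CPM. Blocking on the line leaves 1 residual degree of freedom, the difference between the dox changes of the clones. The PB line, with 1 library per condition, adds nothing to it. It suits the changes within lines. For EXOSC3r against PB it omits clone-to-clone spread from the error. The chi-square per degree of freedom between clones was 65.8 without and 315 with dox, so neither was a copy of the other.

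Alternatives were DESeq2 size factors, total counts, ACTB and GAPDH scaling, DESeq2 1.42.0, 2 other count filters, limma 3.58.1 on log2(TPM + 1) and log2(TPM + 0.1), an effective-length offset, leaving out Alu, ACTB and GAPDH, the block, and leaving out each clone library. The members and lists were chosen with earlier results of these data known. The text names the 5 members, the 5 sequences most correlated with HERVH and examples from the lists. The 3 internal sequences set beside HERVH, all on the class I list, were chosen by their names, with no comparison of sequences.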

Additional observations from a re-analysis of the deposited data

Results flagged for a closer look

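The dox response of HERVH was larger in PB than in EXOSC3r cells by 0.75 on the log2 scale. It is listed because the difference passed the interaction test in edgeR when the line was a block (adjusted p = 0.020), though not without the block (adjusted p = 0.40). The error of the blocked test takes nothing from the PB line. The HERVH level with dox was above that without it in the PB line and below it in 2 of 2 clones.

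The sum of all 5 sequences was listed for the same reason, with a difference of responses of 0.59 (edgeR, adjusted p = 0.038 in the blocked fit and 1.00 in the other). No sequence was examined for outlying libraries, since the groups hold 1 or 2 libraries.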

How the results depend on the processing

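The PB arms hold 1 library each, so a difference of that line or library from the clones cannot be told apart from the effect of the transgene. In some comparisons the median of all sequences shifted by more than 0.1 (log2) with total counts, with TPM and with ACTB and GAPDH scaling; the largest shift was -0.78, for TPM in EXOSC3r minus PB under dox. Shifts above 0.1 in size were subtracted from the log2 values in this section, unless stated otherwise. The subtracted values therefore show little of the effect of scaling. LTR7C had few counts, which limits its precision.

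Members called for dox in EXOSC3r cells numbered 0, but 1 with DESeq2 (against 0.572% of all sequences), 1 without Alu, ACTB and GAPDH (0.431%), and 4 with the replicate block (1.29%). For the difference of responses they numbered 0, but 1 under each of the same 3 settings (0.429%, 0.431% and 0.429%). For EXOSC3r minus PB under dox there was 1, but 0 with total counts (0.429%) and with ACTB and GAPDH scaling (0.143%). There were also 0 with limma on TPM + 1 (0.572%) or TPM + 0.1 (1%), and 2 with the replicate block (3.15%). Leaving out single clone libraries gave HERVH differences of -0.80 to -0.77 there, and its call did not hold throughout. HERVH kept its direction in every alternative, with or without subtraction of the shifts. With subtraction it lay between 0.31 and 0.42 in PB and between -0.46 and -0.40 in EXOSC3r cells. The difference of responses lay between 0.74 and 0.78, and EXOSC3r minus PB under dox between -0.81 and -0.77. Without subtraction, TPM + 0.1 gave 0.56 in PB, -0.56 in EXOSC3r cells, 1.12 for the difference and -1.57 under dox. Under dox, total counts gave -1.175 and ACTB and GAPDH scaling -1.41.

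The sum of all 5 passed for dox in EXOSC3r cells with DESeq2 (-0.43), without Alu, ACTB and GAPDH (-0.43) and with the block (-0.42). It passed for EXOSC3r minus PB under dox with the same settings (-0.54, -0.54 and -0.54), and for the difference of responses with the block (0.59). Summed TPM values weight the short LTRs most, and in PB cells the sum was then -0.13 (TPM + 1) and -0.14 (TPM + 0.1) in place of 0.16; EXOSC3r minus PB under dox was -0.13 and -0.107 in place of -0.53, and the difference of responses 0.292 and 0.281 in place of 0.59. With effective length as an offset these 3 values were 0.0108, -0.298 and 0.43. EXOSC3r minus PB without dox was 0.165, 0.173 and 0.134 in these settings in place of 0.05. The summed LTRs passed in EXOSC3r cells with the block (-0.42) and without the clone 1 library with dox (-0.61); leaving out single clone libraries gave -0.61 to -0.26 there and -0.25 to 0.11 for EXOSC3r minus PB under dox, where the direction turned without the clone 2 library with dox.

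LTR7A had 0.0058 for EXOSC3r minus PB under dox, and -0.266 to 0.232 over left-out clone libraries. It was -0.00062 with DESeq2 size factors, -0.000605 with DESeq2, -0.00102 with no count filter and -0.00342 with 10 counts in all libraries. It was -0.015 with the block and -0.266 without the clone 1 library with dox. It was -0.0382 with total counts, -0.0536 with ACTB and GAPDH scaling, and -0.0292 and -0.00605 with limma on TPM. Without subtraction these were -0.44, -0.69, -0.79 and -0.79. LTR7Y in PB cells was 0.0405 with total counts, and for EXOSC3r minus PB without dox -0.0116 without the clone 1 library lacking dox (0.128 at the other extreme). LTR7B had a difference of responses of -0.193 to 0.168 over the left-out libraries, with 0.12 without the clone 2 library lacking dox and 0.17 without the clone 1 library with dox. LTR7C had -0.121 to 0.316 there, with -0.07 without the clone 1 library lacking dox and -0.12 without the clone 2 library with dox. It was -0.095 (0.197 at the other extreme) without the former for EXOSC3r minus PB without dox, and, without the latter, 0.0323 for dox in EXOSC3r cells (-0.404 at the other extreme) and 0.18 for EXOSC3r minus PB under dox. The causes of these changes were not tested. The LTR7 to HERVH ratio changed in PB cells by -0.50 from counts and -0.52 from TPM.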
